A study of Mus musculus with 6 samples.

Results

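The acyl-CoA synthetases described here are 10 genes, 4 of the long-chain class (Acsl1, Acsl3, Acsl4 and Acsl5), 4 of the medium-chain class (Acsm1, Acsm2, Acsm3 and Acsm5) and 2 of the acetate class (Acss1 and Acss2). They were taken by gene symbol from the 24346 genes listed for each library, and all 10 were found. RNA-seq had been carried out on renal cortex of C57BL/6 mice, with 3 libraries in each of 2 groups. The diet group had received the HF/HC/HS/BA diet, which is rich in fat and cholesterol and contains bile salt, for 8 weeks. The tofogliflozin group had received the same diet with tofogliflozin, an inhibitor of the renal glucose transporter SGLT2, for the same 8 weeks. Every animal was therefore on the steatohepatitis-inducing diet, and no mice on ordinary chow are among the libraries used here. The labels used here give neither the sex nor the age of the animals, and they do not say whether RNA was pooled, so p-values measure the spread between these libraries.

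Acyl-CoA synthetases join a carboxylic acid to coenzyme A at the cost of ATP, and a fatty acid can be neither oxidised nor esterified before this step. The classes are named for the chain length they prefer. The proximal tubule, which makes up most of the renal cortex, draws much of its energy from fatty acids, and the nuclear receptor PPARα, named in the title of the series, induces genes of their activation and oxidation. Medium-chain enzymes work in the mitochondrial matrix, where several also activate aromatic acids such as benzoate for conjugation with glycine. The acetate enzymes make acetyl-CoA, Acss1 in mitochondria and Acss2 in the cytosol and nucleus.

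The values are FPKM, fragment numbers scaled to transcript length and to library size, so levels of different genes can be set side by side. Depth was not given as counts. From the spacing of the lowest values it was placed at about 7710000 to 9970000 fragments per library, at which a transcript of 2 kb at the level of the least expressed member in any library (Acsl4 in diet replicate 3) would rest on about 105 to 136 fragments. All 15 pairs of libraries had a Pearson r of 0.980 to 0.990 over log2 values. Markers of the proximal tubule were abundant in every library, their summed level for 10 genes lying between 11102 and 13227 FPKM in the diet libraries and between 12637 and 14837 FPKM with tofogliflozin. The 7 adipocyte markers summed to 0.829 to 8.25 FPKM with the diet, highest in diet replicate 1, and to 1.12 to 1.49 FPKM with tofogliflozin, and Lep was listed at 0 throughout. No adrenal cortex marker exceeded 1.29 FPKM, and Cyp11a1, Nr5a1 and Cyp21a1 were listed at 0 throughout.

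The level of the 10 genes spanned a wide range. Acsm2 was the most abundant in all 6 libraries, at a mean of 969.6 FPKM over the 6, and ranked between 49 and 77 among the 12248 genes tested. Acsm3 came next by mean but ranged from 73.4 to 453 FPKM, so that it overlapped Acss2 (120.5 to 154 FPKM) and lay above it in 4 of 6 libraries. Acss2 was above Acss1 in every library. Acss1 (80.6 to 116 FPKM), Acsm1 (81.3 to 103 FPKM), Acsl1 (65.0 to 134 FPKM) and Acsm5 (60.1 to 72.9 FPKM) followed, and each overlapped its neighbour in this order. Acsl5 was separate from the genes on either side, between 26.1 and 37.0 FPKM. Acsl3 and Acsl4 were the lowest, at 7.57 to 12.2 FPKM and 6.84 to 11.8 FPKM. Their ranges overlapped, and Acsl3 lay above Acsl4 in 5 of 6 libraries. This order is by the mean of all 6 libraries and was not the same in both groups. With tofogliflozin the mean of Acsm3 (120.4 FPKM) was below that of Acss2 (125 FPKM) and that of Acsl1 (108 FPKM) above that of Acsm1 (92.6 FPKM), while with the diet both pairs had the opposite order. In the renal cortex of these mice the medium-chain class thus made up 78.3% to 84.2% of the summed FPKM of the 10 genes with the diet alone and 71.7% to 78.0% with tofogliflozin.

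**Figure D1:**
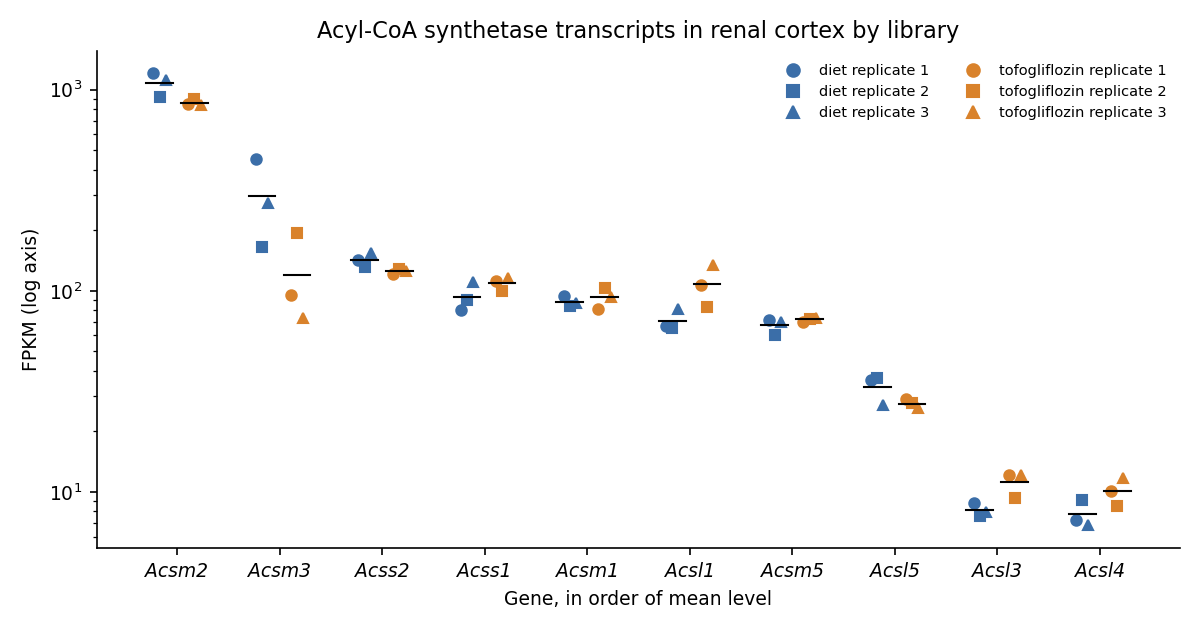
FPKM of the 10 acyl-CoA synthetase genes in each library on a log axis, genes ordered by their mean over 6 libraries. Blue symbols are diet libraries, orange symbols tofogliflozin libraries, symbol shapes replicates, and black lines the mean of 3. Acsm2 lies highest in every library, and Acsm3 spreads most, from 73.4 to 453 FPKM.

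The comparison of the groups asked which synthetase transcripts differ when tofogliflozin is added to the diet. None of the 10 passed over all genes tested (0 at a limma Benjamini-Hochberg adjusted p under 0.05), while 31 of 12248 genes did (0.253%; 0.196% higher and 0.0572% lower). The long-chain genes Acsl1 and Acsl3 had higher values in every tofogliflozin library than in any diet library, and Acsm2 and Acss2 had lower ones. These 4 of 10 compare with 18.5% of all genes tested whose groups did not overlap (9.63% higher and 8.86% lower). Before adjustment, 5 of 10 members had a limma p under 0.05, Acsl1, Acsl3 and Acsl4 with a higher mean and Acsm2 and Acsm3 with a lower one, against 13.1% of all genes (6.7% higher and 6.39% lower). That count was 2 without diet replicate 1 and 2 without tofogliflozin replicate 3, Acsl1 and Acsl3 each time, and 3 without tofogliflozin replicate 1. The share of all genes at that p was lower in these fits too, at 9.48%, 8.71% and 10.02% in the same order. Of the 10, 6 had a log2 change above 0, as did 49.7% of all genes, and the median change was 0.08, against -0.00075 over all genes. The 10 genes were chosen with earlier results of these libraries known, so these shares are a description.

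**Figure D2:**
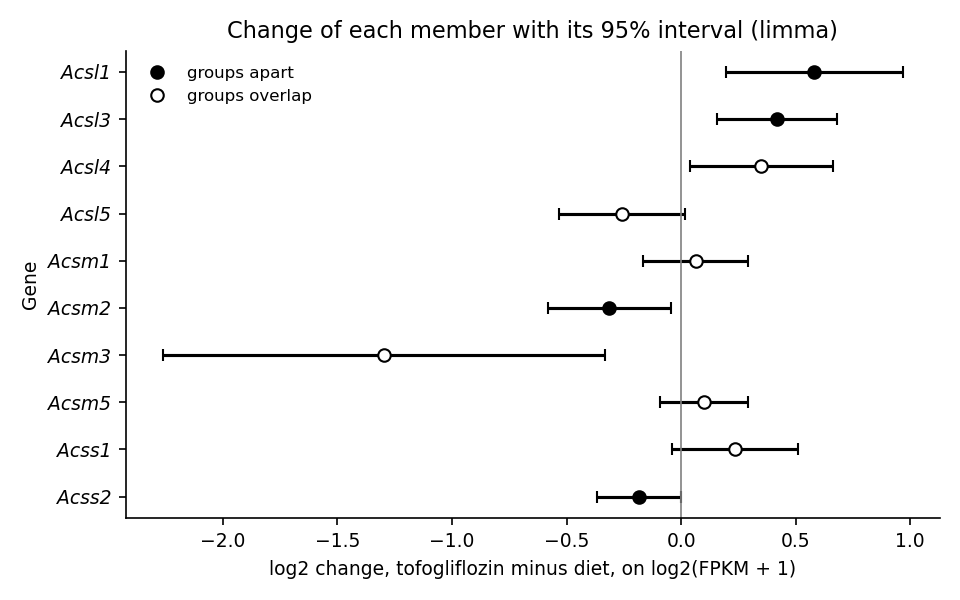
log2 change of each gene (tofogliflozin minus diet, on the log2(FPKM + 1) scale) with its 95% interval from limma. Filled points mark genes whose groups did not overlap, open points those whose groups did. The interval excludes 0 for Acsl1, Acsl3, Acsl4, Acsm2 and Acsm3 before any adjustment for the number of genes, and none passed after it.

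Acsl1 encodes the main long-chain synthetase of oxidative tissues and is a known PPARα target. The diet libraries (replicates 1 to 3) had 66.7, 65.0 and 81.4 FPKM, and those with tofogliflozin had 107, 83.3 and 134 FPKM. The groups did not overlap, but tofogliflozin replicate 2 lay only just above diet replicate 3. The means were 71.0 ± 9.01 and 108 ± 25.5 FPKM (SD, n = 3 each), a ratio of 1.52. On the log2(FPKM + 1) scale the change was 0.58 ± 0.17 (SE; 95% interval 0.20 to 0.97; limma adjusted p = 0.208), and it did not pass. Acsl1 supplied 54.8% to 66.0% of the summed FPKM of the 4 long-chain genes in the diet libraries and 64.7% to 72.9% with tofogliflozin.

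Acsl1 spans positions 46471037 to 46536051 of chromosome 8, plus strand (GENCODE M21, GRCm38). It shares 1039 exon bases with Gm45244, an opposite-strand gene that was not analysed here. Each gene has a single FPKM value, so the start sites cannot be told apart in these data. RefSeq (GRCm38.p6) gives it a pair of start sites. The 250 bases before each are shown because Acsl1 is the member with the largest upward difference. The strict PPAR element searched for, AGGTCA repeated with any 1 base between the copies, was in neither window, and nor was the relaxed form, with AGGNCA for each copy. The downstream start has a match to the sterol regulatory element TCACNCCAC on the minus strand, printed in capitals.
Acsl1, chr8:46470787-46471036, plus strand: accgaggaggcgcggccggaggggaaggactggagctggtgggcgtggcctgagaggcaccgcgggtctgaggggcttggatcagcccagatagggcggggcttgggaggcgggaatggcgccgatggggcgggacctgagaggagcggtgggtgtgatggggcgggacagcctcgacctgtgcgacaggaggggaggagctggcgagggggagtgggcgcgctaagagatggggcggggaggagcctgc
Acsl1, chr8:46490716-46490965, plus strand: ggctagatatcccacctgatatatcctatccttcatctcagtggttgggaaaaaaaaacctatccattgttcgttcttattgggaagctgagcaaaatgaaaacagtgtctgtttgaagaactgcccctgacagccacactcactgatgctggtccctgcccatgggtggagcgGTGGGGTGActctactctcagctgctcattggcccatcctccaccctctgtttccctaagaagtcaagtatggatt
The upstream window is rich in G and C (74.0% from 250 bases before the start to 50 after it, with 30 CpG), while the downstream one has 4 CpG. All promoters of the RefSeq table have a median of 52.7% and of 7 CpG.

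Acsl3 encodes a synthetase of the endoplasmic reticulum and of nascent lipid droplets. It was at 8.80, 7.57 and 7.93 FPKM with the diet and at 12.1, 9.37 and 12.2 FPKM with tofogliflozin. Every tofogliflozin library lay above every diet library, and replicate 2 was again the lowest of its group. Means were 8.10 ± 0.630 and 11.2 ± 1.61 FPKM (SD, n = 3 each; ratio 1.39), with a log2 change of 0.42 ± 0.11 (SE; 95% interval 0.16 to 0.68; limma adjusted p = 0.196), the smallest p of the 10 genes. The gene lies on chromosome 1 from 78657825 to 78707743 on the plus strand and shares 244 exon bases with Utp14b, a same-strand gene at 0.598 to 0.872 FPKM in the 6 libraries. Its upstream sequence, shown beside that of Acsl1 because both had groups apart in the same direction, holds none of the motifs searched.
Acsl3, chr1:78657575-78657824, plus strand: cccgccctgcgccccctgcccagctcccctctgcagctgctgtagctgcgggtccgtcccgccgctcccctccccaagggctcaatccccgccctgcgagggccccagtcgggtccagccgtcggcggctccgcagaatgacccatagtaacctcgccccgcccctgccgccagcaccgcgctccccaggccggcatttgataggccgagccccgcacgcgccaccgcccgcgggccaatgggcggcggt
Like the upstream window of Acsl1 it is rich in G and C (74.0%, with 33 CpG).

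Acsl4 encodes the synthetase that prefers arachidonic acid and other polyunsaturated chains and is known for its part in ferroptosis. It was at 7.28, 9.10 and 6.84 FPKM with the diet and at 10.1, 8.54 and 11.8 FPKM with tofogliflozin. The groups overlapped, since diet replicate 2 was above tofogliflozin replicate 2. The log2 change was 0.35 ± 0.14 (SE; 95% interval 0.04 to 0.66; limma adjusted p = 0.326). In the list of 17 ferroptosis and polyunsaturated lipid genes, 13 of which were tested, none passed (limma; 1 higher and 2 lower at an unadjusted p under 0.05). Its genes of smallest p were Ncoa4, the ferritinophagy receptor (61.8 ± 7.52 and 98.1 ± 12.7 FPKM, diet and tofogliflozin), Gclm of glutathione synthesis (124 ± 9.02 and 92.0 ± 10.6 FPKM) and the haem oxygenase gene Hmox1 (26.1 ± 6.61 and 16.8 ± 2.62 FPKM). Their limma adjusted p were 0.0730, 0.135 and 0.229.

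Acsl5, a long-chain synthetase of mitochondria and the endoplasmic reticulum, was at 36.0, 37.0 and 27.1 FPKM with the diet and at 28.8, 27.6 and 26.1 FPKM with tofogliflozin. Its mean was thus lower with the drug, unlike that of the other long-chain genes, but diet replicate 3 lay below 2 of the 3 tofogliflozin libraries. The log2 change was -0.26 ± 0.12 (SE; 95% interval -0.53 to 0.02; limma adjusted p = 0.413). Its share of the summed long-chain FPKM was 22.0% to 31.2% with the diet and 14.2% to 21.4% with tofogliflozin. Acsl5 shares 404 exon bases with the opposite-strand gene Zdhhc6, whose log2 change was 0.0069 (limma adjusted p = 0.981). The level of Zdhhc6 was 80.3% to 120% of that of Acsl5 with the diet and 113% to 125% with tofogliflozin.

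As a class, the 4 long-chain genes summed to 119, 119 and 123 FPKM in the diet libraries and to 158, 129 and 184 FPKM with tofogliflozin. The diet libraries were close together and all lay below the tofogliflozin libraries, which were spread. The means of the sums were 120.2 and 157 FPKM, and those of Acsl1 alone 71.0 and 108 FPKM (diet and tofogliflozin). The difference of the sums is thus close to that of Acsl1. The 4 medium-chain genes summed to 1823, 1223 and 1544 FPKM with the diet and to 1096, 1266 and 1078 FPKM with the drug, and overlapped because diet replicate 2 was below tofogliflozin replicate 2. The acetate class summed to 235.7 ± 24.5 and 234 ± 6.69 FPKM (SD, n = 3 each), its genes having differences of opposite sign.

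**Figure D3:**
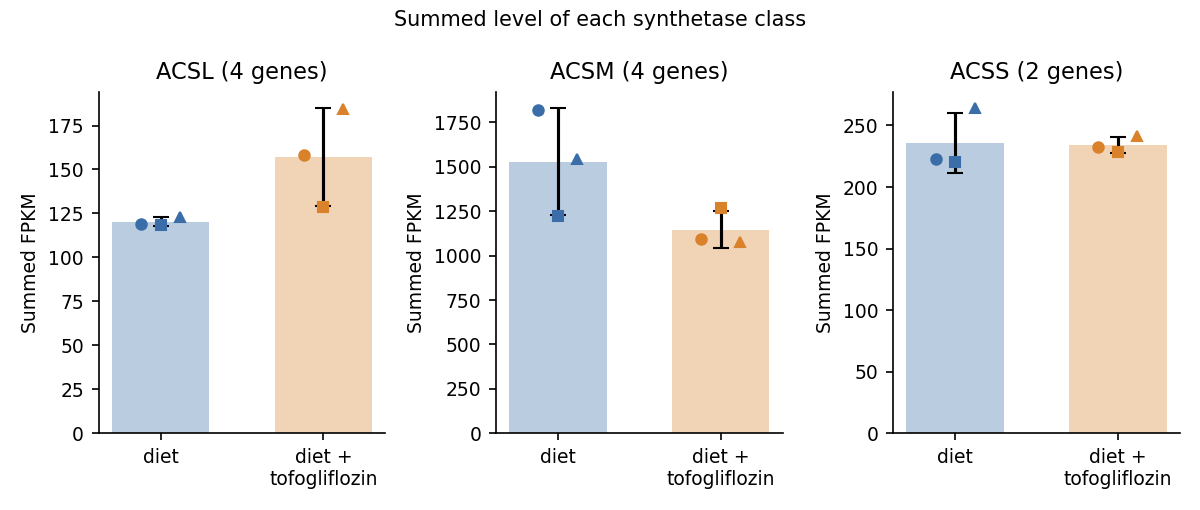
Summed FPKM of the long-chain (ACSL), medium-chain (ACSM) and acetate (ACSS) genes per library. Bars are means of 3 libraries, error bars SD and symbols single libraries. Long-chain sums were 119 to 123 FPKM with the diet and 129 to 184 FPKM with tofogliflozin, a mean difference close to that of Acsl1 alone. The medium-chain sums of the groups overlap.

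The medium-chain genes lie together on chromosome 7, all on the plus strand, in the order Acsm5 (119519463 to 119545551), Acsm2 (119554340 to 119600690), Acsm1 (119607026 to 119662515) and Acsm3 (119760923 to 119787513). They are related in sequence, yet no stretch of 50 bases in the annotated transcripts of any of the 10 members recurred in those of another acyl-CoA synthetase gene, so a fragment aligned in full over such a stretch points to a single synthetase gene.

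Acsm2, a medium-chain synthetase typical of the proximal tubule, was at 1204, 914 and 1115 FPKM with the diet and at 849.7, 897 and 838 FPKM with tofogliflozin. The groups did not overlap, although diet replicate 2 lay close to tofogliflozin replicate 2. Means were 1077 ± 149 and 862 ± 31.2 FPKM (SD, n = 3 each; ratio 0.800), with a log2 change of -0.31 ± 0.12 (SE; 95% interval -0.58 to -0.05; limma adjusted p = 0.3004). In FPKM this mean difference was the largest of the 10 genes. RefSeq gives Acsm2 a pair of start sites as well, shown as the contrast to the long-chain genes because Acsm2 had groups apart in the other direction.
Acsm2, chr7:119554090-119554339, plus strand: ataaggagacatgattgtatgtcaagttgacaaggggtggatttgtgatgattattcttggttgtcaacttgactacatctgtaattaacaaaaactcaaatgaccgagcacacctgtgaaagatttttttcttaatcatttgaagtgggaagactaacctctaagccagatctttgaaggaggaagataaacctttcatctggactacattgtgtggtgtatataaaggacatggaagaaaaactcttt
Acsm2, chr7:119561458-119561707, plus strand: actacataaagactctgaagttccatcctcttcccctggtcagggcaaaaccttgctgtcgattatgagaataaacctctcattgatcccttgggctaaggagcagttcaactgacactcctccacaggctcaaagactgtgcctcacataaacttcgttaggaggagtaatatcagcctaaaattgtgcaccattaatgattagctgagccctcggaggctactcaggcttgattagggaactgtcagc
The windows hold 38.3% and 46.7% G and C, with 1 and 4 CpG, and none of the motifs searched. Over the 12 promoters given for the 10 members, the sterol regulatory element was in 1 and the direct repeat in 0 in either form. Of all 32851 promoters of the same length, 1.24% held the sterol regulatory element, 0.0396% the strict direct repeat and 0.381% the relaxed one, on either strand, the relaxed form including the strict.

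Acsm3, a medium-chain synthetase able to use butyrate, was the most variable member. It was at 453, 165 and 272 FPKM with the diet and at 95.1, 193 and 73.4 FPKM with tofogliflozin. The highest library exceeded the lowest by 6.17 times, where the same ratio was between 1.21 and 2.07 for the other members. Diet replicate 2 lay below tofogliflozin replicate 2, so the groups overlapped. Means were 297 ± 146 and 120.4 ± 63.6 FPKM (SD, n = 3 each; ratio 0.406), with a log2 change of -1.30 ± 0.42 (SE; 95% interval -2.26 to -0.33; limma adjusted p = 0.242), the largest in size of the 10 genes. Within the medium-chain class its share was 13.5% to 24.8% with the diet and 6.81% to 15.2% with the drug.

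Eri2, which encodes an exonuclease, lies on the opposite strand and shares 1962 exon bases with Acsm3, or 39.7% of the annotated exon bases of Acsm3 and 27.4% of its own. Its values followed those of Acsm3 from library to library, at 47.1, 18.3 and 28.4 FPKM with the diet and 13.1, 23.8 and 9.70 FPKM with tofogliflozin. The level of Eri2 was 10.4% to 11.1% of that of Acsm3 in the diet libraries and 12.4% to 13.7% with tofogliflozin. Its log2 change was -0.96 ± 0.37 (SE; limma adjusted p = 0.330). The library kit marks strand, but the strand setting of the counting is not given in the sources used here, so fragments of this pair may not have been told apart. The same limit holds for the other members that share exon bases with an opposite-strand gene. Of other genes listed around the cluster, Thumpd1 was at 11.0 ± 0.670 and 10.7 ± 0.856 FPKM and Dcun1d3 at 6.64 ± 0.928 and 6.48 ± 0.450 FPKM (diet and tofogliflozin), with groups that overlapped. Lyrm1 was at 9.13 ± 0.944 and 10.9 ± 0.227 FPKM, with groups apart in the higher direction (limma adjusted p = 0.305).

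**Figure D4:**
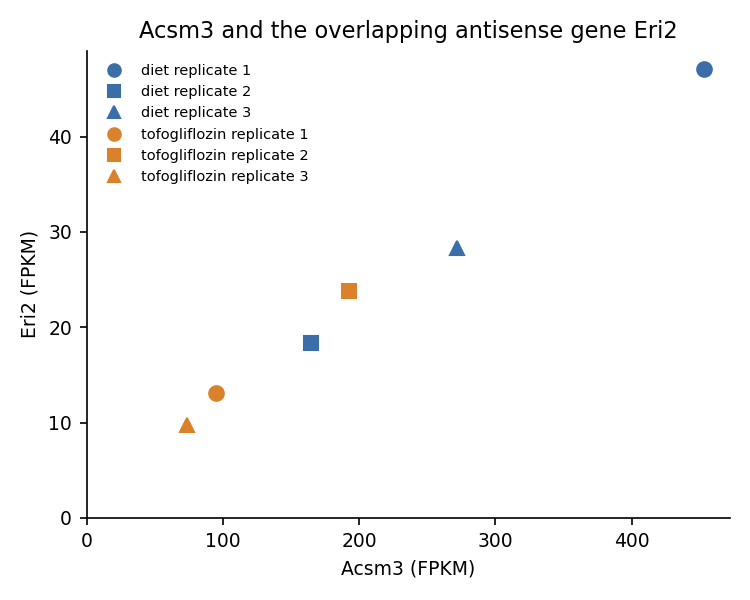
FPKM of Eri2 against FPKM of Acsm3 in the 6 libraries, blue for diet and orange for tofogliflozin, symbols for replicates. The libraries have the same order on both axes, from tofogliflozin replicate 3 (73.4 and 9.70 FPKM) to diet replicate 1 (453 and 47.1 FPKM).

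Acsm1, which also activates lipoate, and Acsm5 had groups that overlapped. Acsm1 was at 94.3, 83.6 and 87.0 FPKM with the diet and 81.3, 103 and 93.2 FPKM with tofogliflozin. Its log2 change was 0.06 ± 0.10 (SE; 95% interval -0.17 to 0.29; limma adjusted p = 0.835). Acsm5 was at 71.9, 60.1 and 70.2 FPKM with the diet and at 70.3, 72.8 and 72.9 FPKM with the drug, and its log2 change was 0.10 ± 0.08 (SE; 95% interval -0.09 to 0.29; limma adjusted p = 0.668). Diet replicate 2 stood below the other 5 libraries for Acsm5. Acsm4, a further gene of the class, was listed at 0 in all 6 libraries. Umod, the uromodulin gene of the thick ascending limb that neighbours the cluster, was at 1802 ± 303 and 1640 ± 32.6 FPKM (limma adjusted p = 0.758).

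The list of 8 markers of the S3 segment of the proximal tubule was set beside the medium-chain genes. Its summed level was 3124 to 3745 FPKM with the diet and 2927 to 3356 FPKM with tofogliflozin, so the sums overlapped. None of its markers was listed at 0 throughout. The synthetase gene Slc27a2 is itself among them, at 2070 ± 248 and 1945 ± 164 FPKM (diet and tofogliflozin). It made up most of the sum, which therefore says little of the other markers. Of the 8, 3 were lower at an unadjusted limma p under 0.05 with groups apart (Atp11a, Slc7a13 and Slc22a30) and 0 were higher at that p, where 6.39% of all genes were lower. The amino acid transporter subunit gene Slc3a1 had groups apart in the higher direction (275 ± 2.80 and 292 ± 2.48 FPKM), and 3 of the 8 had a change above 0. Slc7a13, another amino acid transporter gene, was at 515 ± 17.1 and 430.0 ± 37.1 FPKM. The summed level of 8 markers of the S1 and S2 segments was 2090 to 2637 FPKM and 2233 to 2407 FPKM. A large part of it was Cyp2e1, at 1318 ± 297 and 1184 ± 55.5 FPKM. Of these 8 markers, 2 were higher at an unadjusted limma p under 0.05, as were 6.7% of all genes, and 0 were lower. In whole tissue fewer cells of a segment and less RNA per cell cannot be told apart, and the part of the S3 markers in the values of Acsm2 and Acsm3 was not tested. All 7 collecting duct markers had a change above 0, as did 49.7% of all genes. Of the 7, 4 were higher at an unadjusted limma p under 0.05, as were 6.7% of all genes. Their summed level was 264 to 315 FPKM with the diet and 360 to 402 FPKM with tofogliflozin. Macrophage markers summed to 108 to 295 FPKM and 90.3 to 138 FPKM, highest in diet replicate 2. All 7 that were tested had a change below 0, with a median log2 change of -0.45, and 2 of them were lower at that p. Their part in the values of the synthetases was not tested either.

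Acss2 makes acetyl-CoA from acetate in cytosol and nucleus and is known as an SREBP target. It was at 142, 131 and 154 FPKM with the diet and at 120.5, 128 and 125 FPKM with tofogliflozin. The groups did not overlap by a narrow margin between the replicates numbered 2. Means were 142 ± 11.7 and 125 ± 4.02 FPKM (SD, n = 3 each; ratio 0.878), with a log2 change of -0.18 ± 0.08 (SE; 95% interval -0.37 to 0.00071; limma adjusted p = 0.383). Acss2 spans positions 155517948 to 155585724 of chromosome 2, plus strand, and shares 395 exon bases, 3.89% of its annotated exon bases, with Gss, the glutathione synthetase gene on the opposite strand. Gss was also lower in every tofogliflozin library, at 218, 179 and 202 FPKM with the diet and 149, 173 and 156 FPKM with the drug. Its log2 change was -0.32 ± 0.10 (SE, limma adjusted p = 0.225). Fragments of the bases that Acss2 and Gss share may not have been told apart, as for Acsm3 and Eri2. The sequence before the Acss2 start is shown as that of the other member with lower values in every tofogliflozin library, and it holds none of the motifs searched.
Acss2, chr2:155517793-155518042, plus strand: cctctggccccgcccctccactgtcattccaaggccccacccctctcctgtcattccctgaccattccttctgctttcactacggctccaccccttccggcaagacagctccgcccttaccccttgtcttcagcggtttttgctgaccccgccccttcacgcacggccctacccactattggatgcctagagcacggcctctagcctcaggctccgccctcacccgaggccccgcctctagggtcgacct

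Acss1, the mitochondrial acetate enzyme, was at 80.6, 90.0 and 110.0 FPKM with the diet and at 112, 100.02 and 116 FPKM with tofogliflozin. Diet replicate 3 lay above tofogliflozin replicate 2, so the groups overlapped. The log2 change was 0.23 ± 0.12 (SE; 95% interval -0.04 to 0.51; limma adjusted p = 0.450). Acss1 made up 36.2% to 41.7% of the acetate class with the diet and 43.8% to 48.3% with tofogliflozin, so that its share was higher in every tofogliflozin library. The genes of acetate use and deacetylation, 14 in all, had 0 past the threshold and 0 at an unadjusted limma p under 0.05, against 13.1% of all genes. Those of smallest p were the citrate synthase gene Cs (113 ± 4.12 and 104 ± 1.56 FPKM), the acetyl-CoA thioesterase gene Acot12 (77.2 ± 12.99 and 66.5 ± 6.96 FPKM) and the deacetylase gene Sirt1 (4.71 ± 0.864 and 5.50 ± 0.490 FPKM).

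The libraries of a group were not equal in the members. For Acsl1, Acsl3 and Acsl4 tofogliflozin replicate 2 had the lowest value of its group, and for Acsm2 and Acsm3 it had the highest. Diet replicate 2 was the lowest diet library for Acsl1, Acsl3, Acsm1, Acsm2, Acsm3, Acsm5 and Acss2. The mean deviation of 35 PPARα target genes from their mean over 6 libraries was -0.16, -0.32 and -0.20 on the log2 scale in the diet libraries. With tofogliflozin it was 0.07, 0.15 and 0.46. The 35 include Fabp1, a fatty acid binding protein gene that passed the filter on low values only through the tofogliflozin libraries. Tofogliflozin replicate 3 was the highest library for the PPARα list and for Acsl1, and also for Acsl3, Acsl4, Acsm5 and Acss1. The deviations of Acsl1 were -0.37, -0.41 and -0.09 with the diet and 0.30, -0.06 and 0.63 with the drug. Tofogliflozin replicates 1 and 2 had the opposite order in Acsl1 and in the list. Ppara itself, which is also among the 35, was at 32.8 ± 4.41 and 42.0 ± 7.07 FPKM, with groups that overlapped (limma adjusted p = 0.339). Slc5a2, which encodes the drug's target SGLT2, was at 180.8 ± 36.3 and 164 ± 3.68 FPKM (limma adjusted p = 0.746).

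**Figure D5:**
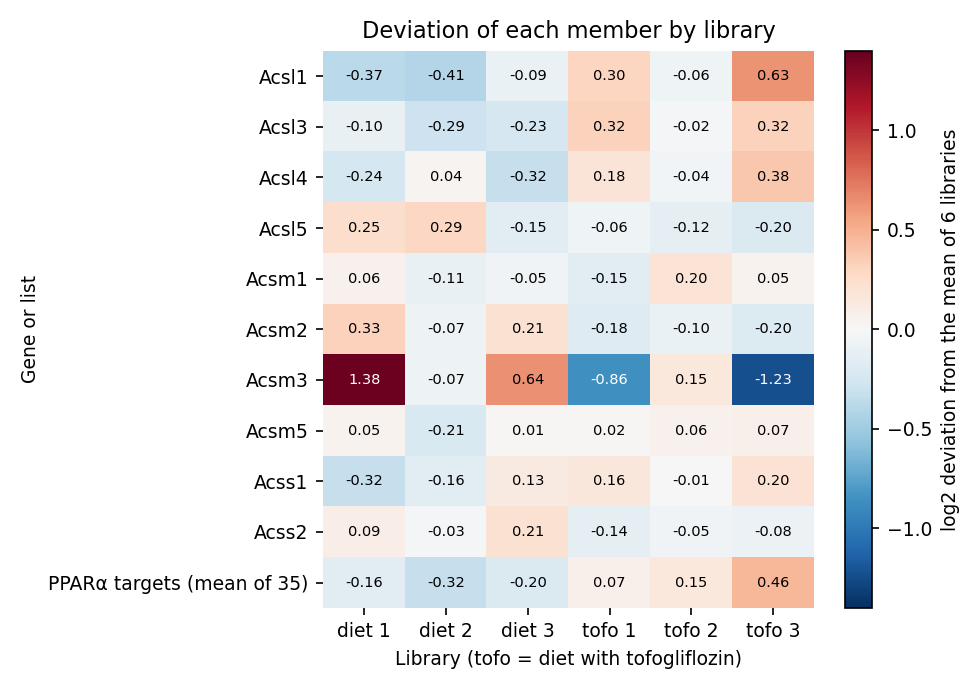
Deviation of each member from its mean over 6 libraries, on the log2(FPKM + 1) scale, by library, with the mean of 35 PPARα target genes in the bottom row. Red is above and blue below the mean. Tofogliflozin replicate 3 has the highest deviation for Acsl1 (0.63) and the lowest for Acsm3 (-1.23), and tofogliflozin replicate 2 lies between -0.12 and 0.20 for all 10 members.

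Of 16 other acyl-CoA synthetase genes listed, 15 were found and 9 were above the filter on low values. None of the 9 passed (limma; 1 at an unadjusted p under 0.05, against 13.1% of all genes). Slc27a2, the very-long-chain synthetase and fatty acid transporter of the proximal tubule, was above every member, at 2070 ± 248 and 1945 ± 164 FPKM (diet and tofogliflozin; limma adjusted p = 0.819). Slc27a1, a fatty acid transport protein with synthetase activity, was at 25.6, 29.2 and 32.0 FPKM with the diet and at 34.6, 34.9 and 42.3 FPKM with tofogliflozin, with groups apart (log2 change 0.35 ± 0.11, SE; limma adjusted p = 0.230). Aacs, which activates acetoacetate, was at 121, 58.0 and 110 FPKM and at 50.6, 81.0 and 67.9 FPKM, and overlapped (limma adjusted p = 0.508). The propionate enzyme gene Acss3 was at 6.403 ± 0.944 and 6.87 ± 1.43 FPKM. Acsf3, the malonyl-CoA synthetase gene, was at 36.2 ± 3.04 and 33.8 ± 2.89 FPKM, and Acsf2 at 7.99 ± 1.09 and 7.71 ± 0.373 FPKM. Slc27a4, another fatty acid transport protein gene, was at 17.6 ± 1.13 and 17.1 ± 0.389 FPKM, Slc27a3 at 1.90 ± 0.439 and 1.76 ± 0.227 FPKM, and Aasdh at 4.43 ± 0.261 and 4.35 ± 0.188 FPKM. Acsl6, the long-chain synthetase of brain, was at or under 0.147 FPKM in every library.

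Other genes were counted from 14 lists, which hold the synthetases outside the 10, genes that supply, use or remove acyl-CoA, targets of PPARα and SREBP2, and neighbours of the medium-chain cluster. Of their 232 genes 205 were tested and 1 passed over all genes, in the lower direction. No gene of these lists was called lower without diet replicate 1, diet replicate 3 or any 1 of the tofogliflozin replicates. Nor was any with a pseudocount of 0.1, another filter on low values, no trend or the replicate block. Without diet replicate 3 or tofogliflozin replicate 2 the count was again 1, but in the higher direction. Of 20 genes of the sterol pathway under SREBP2, all tested, 12 had a change above 0 and the median was 0.03. Mvd, of the mevalonate pathway, was at 37.3 ± 2.38 and 30.5 ± 3.49 FPKM (diet and tofogliflozin; limma adjusted p = 0.256). In the list of 16 acyl-CoA thioesterases, which undo the synthetase step, 13 were tested, 10 had a change above 0 and 4 were higher at an unadjusted limma p under 0.05 with groups apart, while 6.7% of all genes were higher at that p. Acot4, a peroxisomal thioesterase, was at 24.2 ± 0.136 and 32.2 ± 2.58 FPKM, Acot3 at 6.28 ± 1.76 and 16.2 ± 6.402 FPKM, and the cytosolic Acot1 at 23.3 ± 5.08 and 40.0 ± 11.3 FPKM. Their limma adjusted p were 0.0835, 0.129 and 0.212, and the values of these close relatives can share reads.

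Acyl-CoA enters mitochondria through the carnitine shuttle, where 11 of 13 genes were tested and none passed (limma; 2 higher and 2 lower at an unadjusted p under 0.05). Slc25a20, the carnitine-acylcarnitine carrier, was at 29.1 ± 3.32 and 43.2 ± 9.37 FPKM and the peroxisomal acyltransferase gene Crot at 162 ± 16.1 and 125 ± 10.6 FPKM (limma adjusted p = 0.201 and 0.181). Bbox1, of carnitine synthesis, was at 0.742 ± 0.298 and 2.05 ± 0.965 FPKM. It is 1 of the 2 counted higher and passed the filter only through the tofogliflozin libraries. Of 23 genes of mitochondrial beta-oxidation, 16 had a change above 0 with a median of 0.11 and none passed (limma; 3 higher and 1 lower at an unadjusted p under 0.05). Acaa2, a thiolase, was at 133 ± 24.1 and 185 ± 19.1 FPKM, Eci1, an enoyl-CoA isomerase gene, at 80.3 ± 3.73 and 102.5 ± 10.9 FPKM, while Acads, which acts on short chains such as butyryl-CoA, was at 171 ± 22.2 and 137 ± 14.2 FPKM. In the peroxisome 4 of 19 tested genes were higher and 4 lower at that p and none passed (limma). The thiolase gene Acaa1b was at 108.5 ± 6.50 and 175 ± 23.7 FPKM (limma adjusted p = 0.0550), the lyase gene Hacl1 at 22.0 ± 2.37 and 42.5 ± 12.3 FPKM, and the reductase gene Pecr at 441 ± 32.9 and 324 ± 40.9 FPKM. The PPARα target list had 31 of 35 genes with a change above 0, a median of 0.21, and 16 higher and 2 lower at that p, where 6.7% of all genes were higher and 6.39% lower, with none past the threshold (limma). Besides Acaa1b, its genes of smallest p were Angptl4, an inhibitor of lipoprotein lipase (42.4 ± 8.09 and 107 ± 33.9 FPKM), and Txnip (178 ± 28.0 and 289.5 ± 35.7 FPKM). The direction of this list was known from earlier results of these libraries. The list also shares genes with the others counted here, among them Acot1, Acot3, Acot4, Slc25a20, Eci1, Acaa1b and Fabp1, so their counts are not independent of its own. Fabp1, 1 of its 16 genes counted higher, passed the filter only through the tofogliflozin libraries.

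At an unadjusted limma p under 0.05, 6.7% of all genes were higher and 6.39% lower, which is the background for the lists that follow. In the uptake and binding list, with 18 genes, none passed (limma; 3 higher and 2 lower at that p). Cd36, a fatty acid translocase, was at 169.9 ± 22.5 and 114 ± 17.6 FPKM with groups apart (limma adjusted p = 0.131). The caveolin gene Cav1 was at 11.2 ± 1.73 and 15.7 ± 0.335 FPKM. The fatty acid binding protein gene Fabp1 was at 0.538 ± 0.466 and 2.05 ± 0.696 FPKM and is 1 of the 3 counted higher. Like Bbox1, it passed the filter only through the tofogliflozin libraries. The list of glycerolipid synthesis holds mostly acyltransferases, which compete for the same acyl-CoA, and some phosphatidate phosphatases. Of its 20 tested genes, 12 had a change below 0 and none passed (limma, with 2 higher and 0 lower at an unadjusted p under 0.05). Those 2 were Mboat2, at 1.32 ± 0.139 and 2.52 ± 0.198 FPKM, and Mogat2, a monoacylglycerol acyltransferase gene, at 15.9 ± 4.53 and 26.1 ± 3.50 FPKM. The phosphatidate phosphatase gene Lpin3 was next, at 5.40 ± 0.800 and 4.64 ± 0.310 FPKM. Of the 17 genes of acetyl-CoA and fatty acid synthesis, which use the product of Acss2, none passed (limma; 1 higher and 2 lower at an unadjusted p under 0.05). The stearoyl-CoA desaturase gene Scd1 had 25.2 ± 4.69 and 17.7 ± 2.30 FPKM (adjusted p = 0.223 by limma), the lipogenic regulator gene Thrsp 3.43 ± 1.82 and 6.16 ± 0.113 FPKM, and the elongase gene Elovl1 64.5 ± 2.47 and 57.0 ± 3.13 FPKM. Of 14 tested genes of glycine conjugation and butyrate use none passed (limma; 2 higher and 3 lower at an unadjusted p under 0.05). Slc5a8 and Slc5a12 encode transporters of short-chain acids and lactate, the former at 70.2 ± 2.85 and 60.8 ± 1.997 FPKM and the latter at 118 ± 8.58 and 161 ± 25.4 FPKM. The medians of these 4 lists were 0.04, -0.02, -0.04 and -0.09.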

How the data were processed

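RNA-seq of renal cortex from 6 libraries was used, 3 per group as the labels name them. The authors deposited an FPKM value per gene symbol and library. Per the submitters' processing notes Cuffdiff 2.2.1, SAMtools 0.1.18, Bowtie2 2.2.8 and TopHat2 2.1.1 were used with mm10. What each tool did, the annotation, the strand setting and any scaling across samples: not given in the sources used here. A stranded library kit was used, per the labels' protocols. No 2 libraries were identical.

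A gene was kept if 3 or more of the 6 libraries reached 1 FPKM (12248 genes, all 10 members among them), and values were compared on log2(FPKM + 1), which understates the fold change of low genes. The test was limma 3.58.1 in R 4.3.3 (moderated, mean-variance trend, two-sided), Benjamini-Hochberg adjusted over all tested genes, threshold 0.05, and was tested on simulated data. With 3 against 3 an exact permutation test cannot go below p = 0.1, so none is given. Depth was estimated from values below 0.3 FPKM, of which 78.0% of 5751 fell on whole steps with a tolerance of 1%, and from the lengths of 279 single-transcript genes (quartiles 7240000 and 7990000 fragments for diet replicate 1). Being approximate, they entered no count model.

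The members and the gene lists were chosen with earlier results of these data known. Named genes are the 10 members, the other synthetases above the filter, in each list the genes past the threshold and up to 3 of smallest p, and Ppara, Slc5a2 and Umod. Genes that overlap or neighbour a member, markers and Acsl6 and Acsm4 were named beside that rule, after their values were seen. Some genes that the rule takes are not reported here. Positions are from GENCODE M21 (GRCm38) and promoters from RefSeq GRCm38.p6 (250 bases before to 50 after a start, 12 for the 10 members). No protein sequences were used. Alternatives were a pseudocount of 0.1, no filter, a filter of 5 FPKM, upper-quartile scaling, quantile normalization, each library left out, a replicate block, no trend, array weights and a robust trend. Figures were drawn with matplotlib 3.10.9.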

Additional observations from a re-analysis of the deposited data

How the results depend on the processing

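No member passed the threshold in any of the 15 alternatives, and 9 of the 10 kept the sign of their change in all 15; Acsm1 ranged from -0.019 (without tofogliflozin replicate 2) to 0.15 with a library left out. Acsl1 ranged from 0.41 to 0.75 and Acsl3 from 0.36 to 0.53 (log2), each at an unadjusted limma p under 0.05 in 15 of 15, with adjusted p of 0.120 to 0.514 and 0.114 to 0.520. Acsm2 and Acsm3 stayed under it in 10 and 12 of 15. With a library left out the members at that p numbered 2 to 6, among 1067 to 1975 of all genes. The 31 genes called over all became 1 with no filter, 20 with a filter of 5 FPKM, 47 with upper-quartile scaling, 123 with array weights, 61 with a robust trend and 2 to 66 with a library left out. The 1 context gene, called lower, became 0 with a pseudocount of 0.1, no filter, a filter of 5 FPKM or no trend, 2 with upper-quartile scaling, the replicate block, array weights or a robust trend, and 0 to 1 with a library left out. The summed difference (tofogliflozin minus diet) was 23.3 to 51.0 FPKM for the long-chain, -536 to -236 FPKM for the medium-chain and -8.91 to 12.8 FPKM for the acetate class with a library left out; the last was 12.8 without diet replicate 3 and 1.56 without tofogliflozin replicate 2. Libraries of the same replicate number had little in common in their deviations from the group mean (correlation -0.05, -0.06 and 0.05), which does not exclude a pairing. With the replicate block 26 genes passed, 0 of them members. In that fit 4 members were at an unadjusted limma p under 0.05 (Acsl1, Acsl3, Acsl5 and Acsm3, so without Acsl4 and Acsm2). Of all genes 11.0% were at that p with the block. The 2 context genes that passed there were both higher, so the context gene called lower without the block was lost. The cause of these shifts was not tested. No count test was run, so the counting error of single members was not compared.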
